A study of Mus musculus with 6 samples.

Results

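The genes described here are 42 genes of glucose uptake, glycolysis, lactate handling and the response to low oxygen, taken by symbol from a table of 39017 Ensembl gene identifiers. All 42 were found in the table, and all 42 were among the 15567 genes with enough counts to be tested. RNA sequencing compared adherent cells grown from the bone marrow of old mice (more than 78 weeks of age, 3 libraries) with those of young mice (3 weeks of age, 3 libraries). All mice were wild-type animals of the inbred BALB/c strain. The labels do not give the animal behind each library, so a p-value here describes the spread from library to library, which may be technical. The marrow was obtained by crushing limb bones, the adherent cells were expanded in serum-containing medium and labelled as F4/80+ CD169+ macrophages, and each library was made from 10000 cells.

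Glycolysis breaks glucose down to pyruvate in the cytosol. Lactate dehydrogenase turns pyruvate into lactate, and monocarboxylate transporters carry lactate out of the cell. Pyruvate dehydrogenase kinases switch off pyruvate dehydrogenase, which uses pyruvate inside the mitochondria. When oxygen is short, the prolyl hydroxylases (Egln genes) and the ligase subunit VHL no longer destroy the HIF alpha subunits, which pair with ARNT and raise transcription of many glycolytic genes. Macrophages draw on this programme when they are activated, and bone-forming and connective tissue cells use it as well.

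The libraries held between 34391206 and 43367734 counts. The genes of the labelled surface markers were present in all of them: Adgre1 (F4/80) at 198 to 245 CPM in old and 385 to 530 CPM in young libraries, and Siglec1 (CD169) at 37.9 to 48.4 CPM in old and 126 to 139 CPM in young libraries. CPM is a gene's count per 1000000 counts of the scaled library. Markers of other cells were present too. The summed level of 10 macrophage markers was 1649 to 1927 CPM in old and 2902 to 3254 CPM in young libraries, with 1 called higher and 8 called lower. Of 10 stromal markers, type I collagen genes included, 2 were called higher and 2 called lower. Their sum was 23525 to 29633 CPM in old and 30818 to 68480 CPM in young libraries, the highest being young replicate 3. For 8 osteoblast markers it was 744 to 978 CPM in old and 1626 to 3431 CPM in young libraries (5 of 8 called lower). Markers of osteoclasts (544 to 660 CPM in old, 304 to 393 CPM in young), megakaryocytes (232 to 324 CPM in old, 47.3 to 81.1 CPM in young) and B-lineage cells (101 to 116 CPM in old, 47.4 to 63.4 CPM in young) had higher sums in every old library. Of the tested markers, 2 of 7, 5 of 7 and 4 of 5 were called higher, in that order. Sums of pan-leukocyte genes were lower in every old library (1359 to 1453 CPM in old, 1617 to 1989 CPM in young), and those of neutrophil genes (898 to 1691 CPM in old, 1330 to 2309 CPM in young) and endothelial genes (23.9 to 33.8 CPM in old, 17.6 to 36.6 CPM in young) overlapped. Of 8 pan-leukocyte genes 4 were called lower, and 0 neutrophil or endothelial genes were called. Over all genes tested, 4.70% were called lower and 5.84% higher. In bulk RNA, fewer cells of a type and less RNA per cell cannot be told apart, and the part these cell types have in the values below was not tested.

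The lactate exporter gene Slc16a3, the glucose transporter gene Slc2a6, 4 glycolytic enzyme genes, Pdk1 and 5 hypoxia targets were lower in old libraries, and Ldhb, Hif1a and Epas1 were higher. At an adjusted p of 0.05 (edgeR, over all genes tested), 12 of the 42 genes were lower and 3 were higher in old libraries, with a median log2 fold change of -0.23 over the 42. Together that is 35.7% of them, where 10.5% of all tested genes were called (4.70% lower, 5.84% higher) and the median was -0.01. Among the 9676 tested genes with a mean of at least 10 CPM, 11.1% were called (5.08% lower, 5.99% higher). Of the 12 and 3 calls, 10 and 2 were also over 1.5-fold, against 3.67% of all tested genes lower and 4.57% higher. Old and young CPM ranges were apart for 23 of the 42, with 19 lower and 4 higher in old libraries, against 30.2% of all tested genes (14.3% lower, 15.9% higher). Of the 15 calls, 8 held when any single library was left out: Slc16a3, Slc2a6, Aldoc, Pfkl, Ldhb, Ndrg1, Car12 and P4ha1. The counts depended on the library set. Without young replicate 3, 19 were lower and 5 higher, where 16.5% of all genes were called. Without young replicate 1 they were 8 and 1 (6.10% of all genes), and without young replicate 2, 10 and 1 (7.00%). Without old replicate 1 or 2 they were 7 and 1 (4.58% and 4.59%), and without old replicate 3, 8 and 1 (5.77%). The DESeq2 test gave 14 lower and 3 higher (13.3% of all genes), limma-voom and upper-quartile factors 11 and 3 (10.6% and 10.7%), and fits with no low-count filter (6.90%) or with at least 50 counts in 3 libraries (12.2%) 12 and 3.

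**Figure D1:**
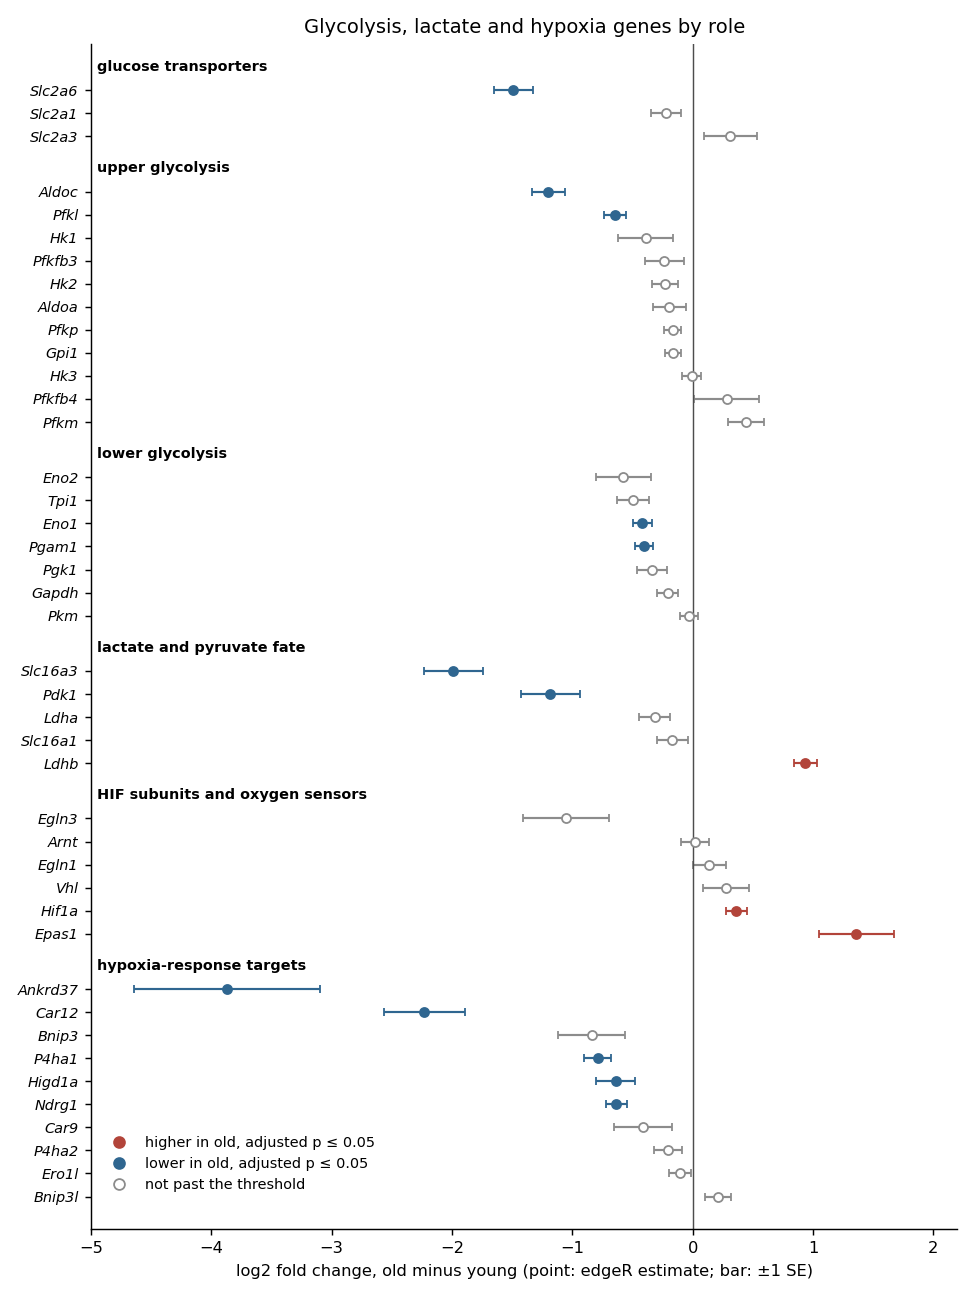
Log2 fold change (old minus young, x axis) of each of the 42 genes, in blocks by role, with the edgeR estimate as a point and ±1 SE as a bar. Filled points passed the threshold; they lie left of 0 for 12 genes, furthest for Ankrd37 at -3.87, and right of 0 for Ldhb, Hif1a and Epas1.

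HIF binds DNA at a short core for which ACGTG is the usual form, so the 250 bases before each transcript start in the RefSeq promoter table, on the GRCm38.p6 build, were searched for ACGTG on both strands. A CACGTG, which holds the core on both strands and is also the E-box of other factors, was counted once. Promoter sequences were matched for 37 of the 42 genes, and 20 of these (54.1%) held the core in at least 1 promoter. Counted in the same way, so did 24.4% of the 10989 tested genes with a promoter in the table. The share was 19.2% for such genes called lower and 18.5% for all 27025 genes in the promoter table. Counted per promoter, it was 16.6% of all 32851. Known HIF targets are among the 42 by choice, so their share is no result about age. The core was found in 4 of 11 genes called lower, 1 of 2 called higher and 15 of 24 not called. The upstream sequences of the 4 genes that were lower and hold the core, of Hif1a, and of the lactate dehydrogenase pair are printed 5′ to 3′ along the gene's strand, with each match in capitals.
Slc16a3, chr11:120948817-120949066, plus strand: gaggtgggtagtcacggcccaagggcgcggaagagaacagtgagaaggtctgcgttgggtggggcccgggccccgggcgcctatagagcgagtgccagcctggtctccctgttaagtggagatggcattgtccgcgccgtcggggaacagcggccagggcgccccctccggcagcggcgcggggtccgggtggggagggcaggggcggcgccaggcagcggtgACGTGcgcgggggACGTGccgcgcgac
Ankrd37, chr8:45999851-46000100, minus strand: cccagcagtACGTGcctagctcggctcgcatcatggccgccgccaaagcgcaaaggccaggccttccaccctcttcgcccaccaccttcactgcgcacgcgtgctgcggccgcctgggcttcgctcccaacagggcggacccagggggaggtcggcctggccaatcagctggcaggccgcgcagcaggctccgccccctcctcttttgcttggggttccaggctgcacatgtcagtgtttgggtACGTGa
P4ha1, chr10:59323046-59323295, plus strand: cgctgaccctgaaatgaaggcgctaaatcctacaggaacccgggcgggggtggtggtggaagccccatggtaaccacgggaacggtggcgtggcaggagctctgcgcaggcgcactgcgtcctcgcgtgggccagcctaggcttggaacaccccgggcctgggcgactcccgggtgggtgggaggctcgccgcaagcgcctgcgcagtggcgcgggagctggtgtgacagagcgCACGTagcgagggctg
Pgam1, chr19:41911621-41911870, plus strand: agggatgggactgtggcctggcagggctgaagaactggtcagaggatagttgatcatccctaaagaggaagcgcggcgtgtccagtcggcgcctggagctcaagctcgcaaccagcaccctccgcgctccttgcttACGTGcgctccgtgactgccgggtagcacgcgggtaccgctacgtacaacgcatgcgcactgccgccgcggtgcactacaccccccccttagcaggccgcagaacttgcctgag
Hif1a, chr12:73907617-73907866, plus strand: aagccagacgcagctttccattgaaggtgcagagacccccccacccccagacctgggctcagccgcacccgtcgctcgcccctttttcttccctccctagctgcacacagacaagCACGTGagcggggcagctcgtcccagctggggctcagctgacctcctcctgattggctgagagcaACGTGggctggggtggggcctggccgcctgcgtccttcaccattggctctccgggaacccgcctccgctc
Ldhb, chr6:142507958-142508207, minus strand: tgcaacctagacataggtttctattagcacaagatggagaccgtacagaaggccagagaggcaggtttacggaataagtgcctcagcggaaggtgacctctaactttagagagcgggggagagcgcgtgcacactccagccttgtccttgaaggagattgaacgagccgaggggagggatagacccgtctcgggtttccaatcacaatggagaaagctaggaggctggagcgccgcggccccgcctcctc
Ldha, chr7:46845554-46845803, plus strand: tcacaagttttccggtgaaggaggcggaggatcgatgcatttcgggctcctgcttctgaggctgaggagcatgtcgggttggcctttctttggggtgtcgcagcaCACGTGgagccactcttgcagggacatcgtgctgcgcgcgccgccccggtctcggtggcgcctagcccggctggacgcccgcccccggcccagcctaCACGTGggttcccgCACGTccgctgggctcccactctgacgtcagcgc
For 4 of these genes, Slc16a3, Ankrd37, Hif1a and Ldha, the RefSeq start lies downstream of the first start that GENCODE M21 annotates, so the whole window is inside the annotated gene. Slc16a3 holds 2 matches at the 3′ end of its window, and Ankrd37 holds 2 at opposite ends. Ldha holds 3, of which 2 lie in a CACGTG, and Ldhb holds no ACGTG on either strand. Other forms of the core were not searched for, so a window counted without a match may hold one. A match is a string of letters and not evidence of binding, and these windows miss more distant elements.

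Among the lactate genes Slc16a3 had the largest difference. It encodes MCT4, the transporter that exports lactate from glycolytic cells, and lies on chromosome 11 (120948480 to 120960868, plus strand; GENCODE M21, mm10). It stood at 38.8, 50.6 and 46.3 CPM in old replicates 1, 2 and 3, against 247, 165 and 126 CPM in young replicates 1, 2 and 3. Every old library lay below every young one, and the young libraries were spread wider than the old ones. Its log2 fold change was -1.99, SE 0.25 (edgeR adjusted p = 0.00347), a 3.97-fold lower level, and it lay between -2.19 and -1.69 when single libraries were left out. Slc16a1, which encodes MCT1, a transporter that carries lactate in either direction, had 73.8, 77.6 and 71.4 CPM in old and 97.1, 84.9 and 68.7 CPM in young libraries, and did not pass the threshold (log2 fold change -0.17, SE 0.13, adjusted p = 0.505). Per kilobase of transcript, Slc16a3 averaged 10.4 CPM in old and 41.4 CPM in young libraries, and Slc16a1 16.8 CPM in old and 18.9 CPM in young libraries. Slc16a3 was thus below Slc16a1 in each old library and above it in each young one.

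Of the lactate dehydrogenase genes, Ldhb passed and Ldha did not. Ldhb, which encodes the B (heart) subunit and lies on the minus strand of chromosome 6 (142490249 to 142507957), stood at 103, 95.7 and 107 CPM in old libraries, against 55.6, 48.1 and 56.1 CPM in young ones. The old libraries were all above the young ones, and Ldhb had a log2 fold change of 0.94, SE 0.09 (adjusted p = 0.00168). It was higher in old libraries in each of the 14 alternative fits. Ldha, which encodes the A (muscle) subunit, had 1826, 1974 and 1807 CPM in old and 2701, 2324 and 1950 CPM in young libraries. The highest old library lay just above the lowest young one, and Ldha did not pass (log2 fold change -0.32, SE 0.13, adjusted p = 0.190). The log2 ratio of Ldhb to Ldha within a library was -4.19 ± 0.15 in old and -5.43 ± 0.28 in young libraries (SD, n = 3 each), a difference of 1.23. The exact two-sided permutation test gave p = 0.1, the smallest that 3 against 3 libraries allow, and 0.16 adjusted over the 16 ratios computed. Ldha remained the more abundant subunit at both ages, with 1058 CPM per kilobase in old and 1317 CPM in young libraries, where Ldhb had 78.1 CPM in old and 40.8 CPM in young libraries.

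Pdk1, a kinase that switches off pyruvate dehydrogenase and a known HIF target, had 13.4, 17.3 and 16.1 CPM in old libraries, against 49.7, 27.7 and 29.0 CPM in young ones. Its ranges did not overlap, with young replicate 1 well above the other young libraries. This gave a log2 fold change of -1.18, SE 0.24 (adjusted p = 0.0240), or -0.86 without young replicate 1. The call was lost without any one of the old libraries (adjusted p up to 0.103).

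Among 3 glucose transporters only Slc2a6 passed (33.3% called, against 10.5% of all genes tested). It encodes GLUT6, a transporter found on lysosomes of macrophages. Its level was 12.7, 17.8 and 12.4 CPM in old and 42.6, 40.5 and 37.5 CPM in young libraries. The gap between the ages was wider than either range (log2 fold change -1.49, SE 0.16, adjusted p = 0.00227). Slc2a1, the widespread transporter GLUT1, had 87.9 to 94.0 CPM in old and 88.4 to 123 CPM in young libraries, and Slc2a3, the high-affinity transporter GLUT3, 20.2 to 23.4 CPM in old and 12.5 to 23.4 CPM in young libraries. Neither passed (adjusted p = 0.345 and 0.466), and their ranges overlapped.

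In upper glycolysis, from hexokinase to aldolase, 2 of 11 genes were lower (18.2%, against 4.70% of all genes tested) and 9 did not pass. Pfkl encodes the liver form of phosphofructokinase, the main control point of the pathway. It had 158, 167 and 163 CPM in old and 284, 234 and 245 CPM in young libraries (log2 fold change -0.65, SE 0.09, adjusted p = 0.00588). The muscle form Pfkm had 25.3, 30.0 and 29.6 CPM in old and 19.5, 18.0 and 24.9 CPM in young libraries, ranges that did not overlap, but it did not pass (log2 fold change 0.44, SE 0.15, adjusted p = 0.118), and 10.7% of its exon length overlaps other genes. The platelet form Pfkp, at 105 to 109 CPM in old and 117 to 125 CPM in young libraries, did not pass either (adjusted p = 0.197). The log2 ratio of Pfkm to Pfkl was -2.51 ± 0.10 in old and -3.59 ± 0.29 in young libraries, and that of Pfkp to Pfkl was -0.60 ± 0.01 in old and -1.07 ± 0.18 in young libraries (SD, n = 3 each; exact permutation p = 0.1 for both, adjusted 0.16). Pfkl had the highest level per kilobase of the 3 forms at both ages, with 43.6 CPM in old and 68.3 CPM in young libraries.

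Aldoc encodes aldolase C, the form typical of brain. It had 6.30, 5.82 and 6.41 CPM in old and 15.2, 12.4 and 14.9 CPM in young libraries, with tight values within each age (log2 fold change -1.20, SE 0.14, adjusted p = 0.00271). Aldoa, the main form outside liver and brain, was far more abundant, with 637 CPM per kilobase in old and 728 CPM in young libraries where Aldoc had 2.22 CPM in old and 5.09 CPM in young libraries. Aldoa did not pass (log2 fold change -0.19, SE 0.14, adjusted p = 0.480). The hexokinase genes, which trap glucose in the cell, did not pass (log2 fold changes -0.39 for Hk1, -0.23 for Hk2 and -0.01 for Hk3, SE 0.23, 0.11 and 0.08). Hk1 ranged from 124 to 207 CPM in old and from 184 to 285 CPM in young libraries, and Hk3 from 158 to 164 CPM in old and from 151 to 175 CPM in young libraries. Of these, Hk2 had ranges that did not overlap, 30.8 to 31.4 CPM in old and 32.3 to 41.3 CPM in young libraries. Gpi1, the isomerase of the second step, had 335, 352 and 362 CPM in old and 390, 391 and 393 CPM in young libraries, also without overlap, at a log2 fold change of -0.16 (adjusted p = 0.203), and 11.5% of its exon length overlaps an antisense gene. Pfkfb3 and Pfkfb4, which make and break the activator of phosphofructokinase, had log2 fold changes of -0.24 and 0.28 (SE 0.16 and 0.27) and did not pass.

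**Figure D2:**
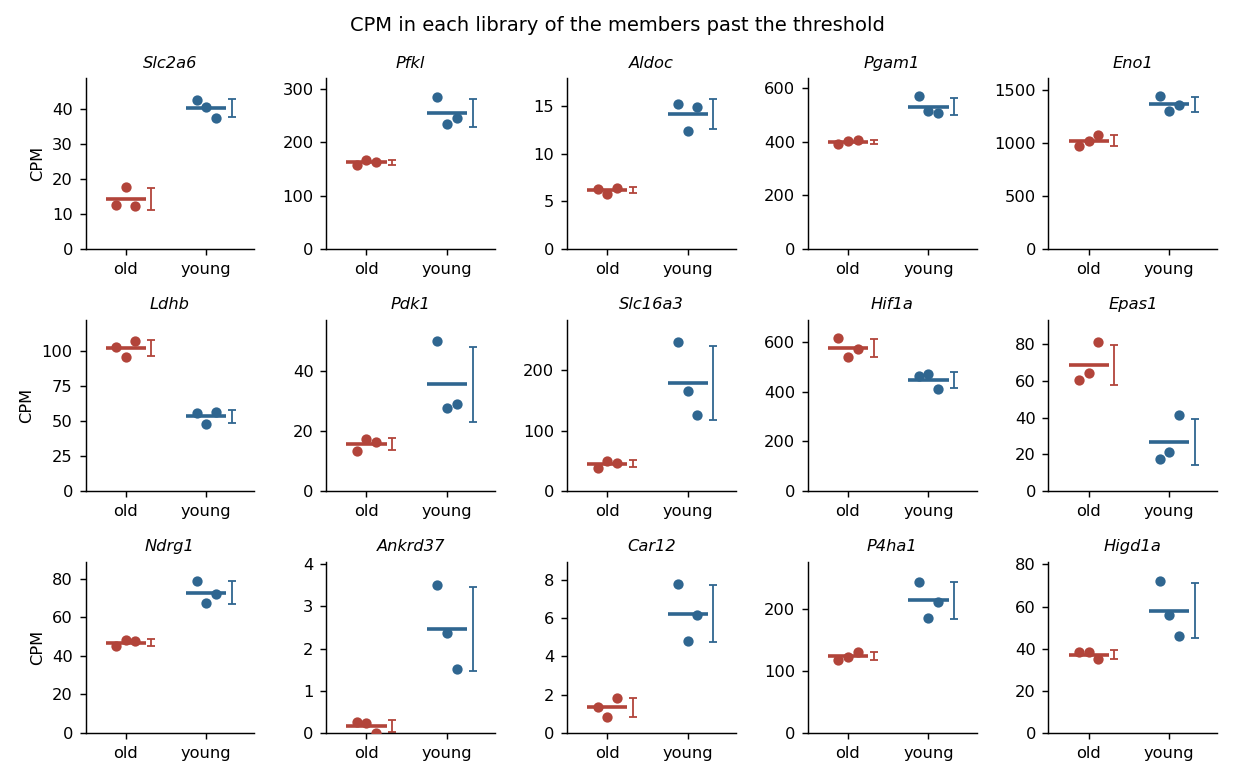
CPM (y axis, from 0) in each library of the 15 genes past the threshold, old libraries left and young libraries right; points are libraries, the thick line is the mean and the thin bar ±1 SD. In none of the panels do the ages overlap, and the young libraries of Slc16a3 range from 126 to 247 CPM where the old ones range from 38.8 to 50.6 CPM.

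All 7 genes of lower glycolysis, from triose phosphate isomerase to pyruvate kinase, had negative log2 fold changes. Only Pgam1 and Eno1 passed, and each by less than 1.5-fold. That is 28.6% called lower, against 4.70% of all genes tested, of which 8013 of 15567 had negative log2 fold changes. Eno1, the widespread form of enolase, had 966, 1019 and 1075 CPM in old and 1435, 1296 and 1356 CPM in young libraries (log2 fold change -0.42, SE 0.08, adjusted p = 0.0214). Pgam1, the phosphoglycerate mutase, had 391, 403 and 405 CPM in old and 568, 514 and 508 CPM in young libraries (log2 fold change -0.41, SE 0.08, adjusted p = 0.0168). Ranges of the ages were apart for both, and both calls were lost without any one of the old libraries or young replicate 1 (adjusted p up to 0.113 for Eno1 and 0.0940 for Pgam1). Tpi1, the isomerase, had 330, 423 and 466 CPM in old and 614, 552 and 556 CPM in young libraries and missed the threshold (log2 fold change -0.50, SE 0.13, adjusted p = 0.0580). Pgk1, which makes the first ATP of the pathway, had 274, 283 and 271 CPM in old and 408, 348 and 290 CPM in young libraries, without overlap and without a call (log2 fold change -0.34, SE 0.12, adjusted p = 0.153). Pkm, pyruvate kinase, was the most abundant of the 42 in CPM and differed least of these 7, with 2631 to 2732 CPM in old and 2639 to 2795 CPM in young libraries (log2 fold change -0.03, SE 0.08, adjusted p = 0.868), although 15.3% of its exon length overlaps another gene. Eno2, the neuronal enolase, had 3.36 to 4.20 CPM in old and 4.07 to 6.57 CPM in young libraries, and did not pass (adjusted p = 0.180).

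Gapdh and Eno1 cannot be read without their copies. The mouse genome carries many processed pseudogenes of glycolytic genes, and 14 of the 42 genes had at least 1 copy in the table by sequence match (at least 80% identity for pseudogenes and 90% for other genes, over at least 50% of the copy). For Gapdh 291 copies were found in the table, of which 127 had counts. Gapdh itself had 74.7, 78.0 and 78.0 CPM in old and 97.1, 88.7 and 80.7 CPM in young libraries, while 88.5% to 89.8% of the reads of Gapdh and its copies were counted to the copies in each library. One of them, the processed pseudogene Gm13394, held 90139 counts over the 6 libraries, where Gapdh held 18332. With the copies added, the Gapdh level was 701, 767 and 731 CPM in old and 841, 813 and 752 CPM in young libraries, the ranges overlapped, and the log2 fold change came to -0.13, SE 0.08 (adjusted p = 0.400).

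For Eno1, 41.3% to 43.4% of the reads of the gene and its copies were counted to copies, nearly all of them to Eno1b and Gm4735, with 95589 and 99468 counts over the 6 libraries. Adding them left the log2 fold change at -0.42 with SE 0.09 (adjusted p = 0.0230). The share in copies was 11.8% to 16.2% for Bnip3l, 4.93% to 5.51% for Pgk1, and below 3.2% in each library for the other genes with copies but Pgam1. For Pgam1 it was 17.6% to 19.6% in 5 libraries and 1.37% in old replicate 2. The pseudogene Pgam1-ps2 had 3983, 208 and 3364 counts in old replicates 1, 2 and 3, and 3638 to 4838 counts in young libraries, while the level of Pgam1 itself in old replicate 2 lay between those of the other old libraries. With the copies added Pgam1 had 482, 408 and 499 CPM in old and 706, 638 and 616 CPM in young libraries. Its log2 fold change was then -0.50, SE 0.10 (adjusted p = 0.0250). This larger difference includes the few copy counts of old replicate 2, and their part in it was not tested. How reads that map to several places were counted is not given in the sources used here, so the levels of these genes are uncertain beyond their replicate error.

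**Figure D3:**
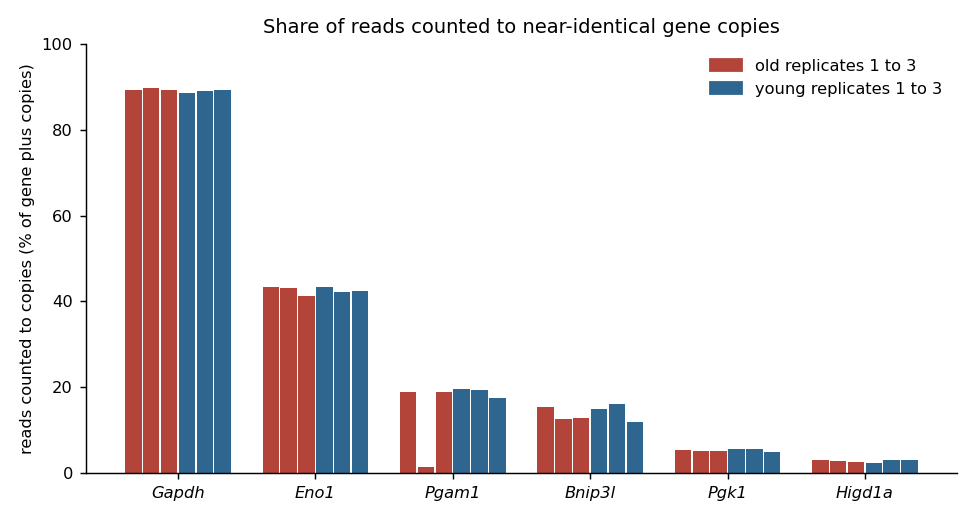
Reads counted to near-identical copies as a percentage of the reads of the gene plus its copies (y axis, 0 to 100), for the 6 genes where it exceeded 1% over all libraries; each bar is a library, old left of young. Gapdh bars stand at 88.5% to 89.8% in both ages, and old replicate 2 stands apart for Pgam1 at 1.37%.

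Of 6 genes of HIF itself and its oxygen sensors, 2 were higher and 4 did not pass. That is 33.3% called higher, against 5.84% of all genes tested. Hif1a, the alpha subunit that drives glycolytic genes, had 615, 541 and 572 CPM in old and 463, 470 and 410 CPM in young libraries. Epas1, which encodes the HIF-2 alpha subunit, had 60.5, 64.7 and 81.4 CPM in old and 17.7, 21.5 and 41.3 CPM in young libraries. Neither gene's ranges overlapped, and young replicate 3 was nearest to the old libraries for Epas1. Hif1a had a log2 fold change of 0.36, SE 0.09 (adjusted p = 0.0446), and Epas1 of 1.36, SE 0.31 (adjusted p = 0.0352). Each of these calls survived the removal of young replicate 3 but of no other single library (adjusted p up to 0.178 for Hif1a and 0.115 for Epas1), and the log2 fold change of Epas1 was 1.81 without that library. Arnt, the shared partner, had a log2 fold change of 0.02 (SE 0.12, adjusted p = 0.947), and Vhl and Egln1, the main oxygen-sensing hydroxylase, did not pass (adjusted p = 0.450 and 0.629). Vhl averaged 42.6 ± 0.314 CPM in old and 35.2 ± 9.34 CPM in young libraries (SD, n = 3 each), and Egln1 had 10.5 to 12.1 CPM in old and 9.01 to 11.4 CPM in young libraries. Egln3, a hydroxylase gene that HIF itself switches on, had 2.42, 2.80 and 1.72 CPM in old and 7.19, 4.22 and 3.00 CPM in young libraries, apart but not past the threshold (log2 fold change -1.05, SE 0.36, adjusted p = 0.122). HIF alpha subunits are controlled mainly through the stability of the protein, which RNA does not show.

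Of 10 known targets of the hypoxia response, 5 were lower in old libraries and 5 did not pass. That is 50% called lower, against 4.70% of all genes tested. Ankrd37, an ankyrin repeat gene known as a HIF target, had 11, 9 and 0 counts in old libraries, against 123, 84 and 51 in young ones. In CPM that is 0.162 ± 0.140 in old and 2.47 ± 1.00 in young libraries (SD, n = 3 each); the count of 0 in old replicate 3 allows up to 3 counts, or 0.0833 CPM. The difference had a log2 fold change of -3.87, SE 0.77 (adjusted p = 0.0218). The size of this fold rests on few old counts, 26.4% of the exon length overlaps other genes, and the call was lost without old replicate 1 or 2 or young replicate 1 or 2 (adjusted p up to 0.0814). Car12, a membrane carbonic anhydrase that helps to keep pH, had 59, 31 and 66 counts in old and 272, 169 and 207 counts in young libraries. That is 1.35, 0.804 and 1.83 CPM in old and 7.76, 4.78 and 6.15 CPM in young libraries (log2 fold change -2.23, SE 0.34, adjusted p = 0.00810). The other membrane carbonic anhydrase of the set, Car9, had 2.96 to 4.93 CPM in old and 4.52 to 5.29 CPM in young libraries and did not pass (adjusted p = 0.369).

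P4ha1, a catalytic subunit of collagen prolyl hydroxylase, had 118, 122 and 131 CPM in old and 244, 186 and 211 CPM in young libraries (log2 fold change -0.79, SE 0.11, adjusted p = 0.00596). Its paralogue P4ha2 had 132 to 136 CPM in old and 128 to 171 CPM in young libraries and did not pass (adjusted p = 0.342). The log2 ratio of P4ha2 to P4ha1 was 0.12 ± 0.08 in old and -0.47 ± 0.15 in young libraries (SD, n = 3 each; exact permutation p = 0.1, adjusted 0.16). Both enzymes act on collagen. The stromal and osteoblast marker sums were also lower in each old library than in any young one, though calls among stromal markers were mixed (2 higher, 2 lower). The part of these cell types in the P4ha1 difference was not tested. Ndrg1, a stress-responsive gene, had 45.0, 48.1 and 47.7 CPM in old and 79.0, 67.3 and 72.3 CPM in young libraries (log2 fold change -0.63, SE 0.09, adjusted p = 0.00642). Higd1a, a mitochondrial survival gene, had 38.2, 38.4 and 34.9 CPM in old and 71.9, 55.8 and 46.2 CPM in young libraries (log2 fold change -0.64, SE 0.16, adjusted p = 0.0481). The Higd1a call survived the removal of young replicate 3 but of no other single library (adjusted p up to 0.152), and 22.5% of its exon length overlaps an antisense gene. Bnip3 and Bnip3l, which mark mitochondria for removal, did not pass. Bnip3 had 63.6, 54.4 and 54.0 CPM in old and 147, 97.7 and 62.7 CPM in young libraries, so that old replicate 1 overlapped young replicate 3 (log2 fold change -0.84, SE 0.28, adjusted p = 0.115), and 22.3% of its exon length overlaps another gene. Bnip3l had a log2 fold change of 0.21 (SE 0.11) and Ero1l, an oxidase of protein folding, of -0.11 (SE 0.09).

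**Figure D4:**
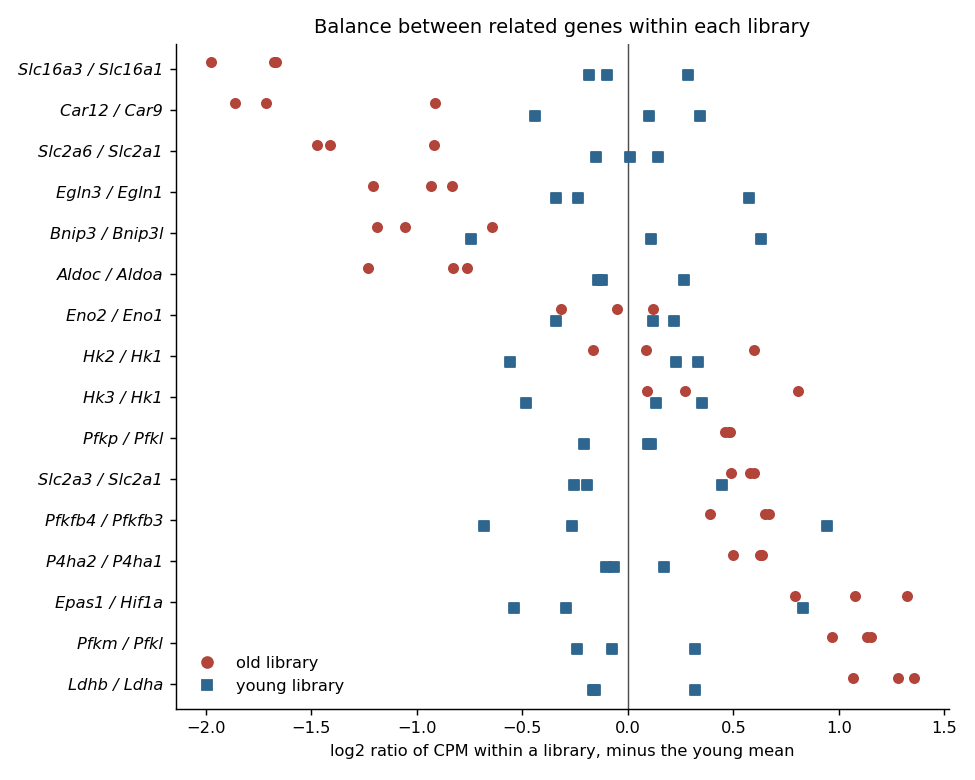
Log2 ratio of the CPM of 2 related genes within each library, after subtracting the young mean (x axis), for 16 pairs; circles are old and squares are young libraries. The old libraries lie furthest to the left for Slc16a3 to Slc16a1 (difference -1.77) and furthest to the right for Ldhb to Ldha (difference 1.23).

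Ratios within a library do not depend on scaling between libraries, and 10 of the 16 pairs had ranges that did not overlap between the ages. Most of these pairs hold a gene that was itself called, so they repeat those calls in part. Ratios of other gene pairs were not computed, so this count has no share over all genes beside it. For single genes, ranges were apart for 30.2% of those tested. The log2 ratio of Slc16a3 to Slc16a1 was -0.72 ± 0.18 in old and 1.06 ± 0.25 in young libraries, that of Slc2a6 to Slc2a1 -2.64 ± 0.30 in old and -1.37 ± 0.15 in young libraries, and that of Car12 to Car9 -1.19 ± 0.51 in old and 0.31 ± 0.40 in young libraries (SD, n = 3 each; exact permutation p = 0.1 for each, adjusted 0.16). For Epas1 to Hif1a the ratio was -3.07 ± 0.27 in old and -4.13 ± 0.73 in young libraries, and young replicate 3 overlapped the old ones (exact permutation p = 0.2, adjusted 0.267).

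The 42 genes varied more among young than among old libraries, as did most tested genes. The median coefficient of variation was 5.97% in old and 14.3% in young libraries, against 9.46% in old and 14.9% in young libraries over all genes tested. Within the young group the genes tended to share an order, a pattern chosen after their values were seen. Young replicate 1 was the highest young library for each of the 12 genes called lower in old libraries, and for 35.4% of all genes called lower. For 16 of the 42 genes (38.1%) young replicate 1 was the highest and young replicate 3 the lowest, against 19.6% of all tested genes. The ratio of young replicate 1 to young replicate 3 among these 16 was widest for Egln3 (2.40), Bnip3 (2.35), Ankrd37 (2.32) and Slc16a3 (1.96). It was 1.73 for Vhl, 1.39 for Ldha and 1.41 for Pgk1. Of the 10 hypoxia-response targets, 3 had young replicate 1 highest and young replicate 3 lowest. The 42 genes together took 1.02% to 1.09% of counts in old libraries, and 1.35%, 1.21% and 1.08% in young replicates 1, 2 and 3. Young replicate 3 also held the most type I collagen, at 5.44% of its counts, where young replicates 1 and 2 had 3.00% and 2.66%, and the part of this difference in the order of the young libraries was not tested.

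**Figure D5:**
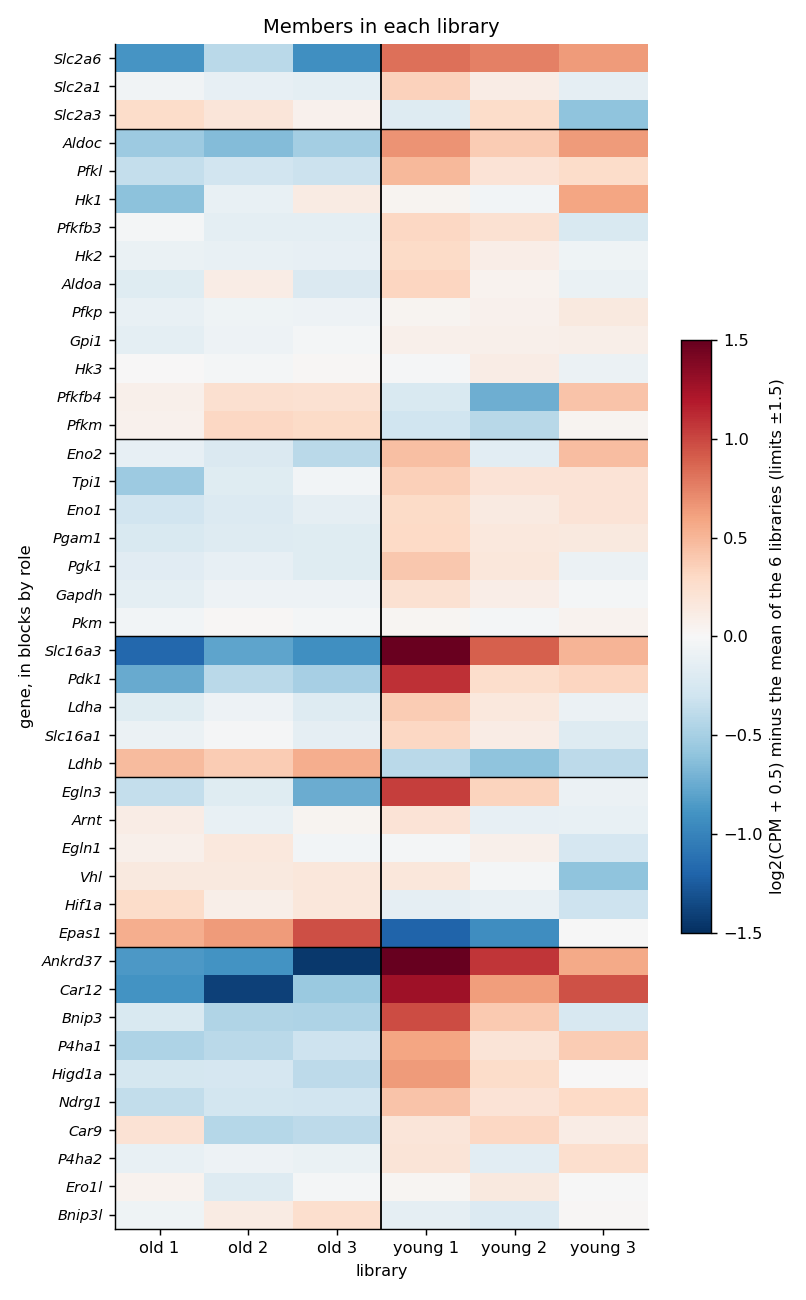
Level of each of the 42 genes in each library, as log2(CPM + 0.5) minus the mean of the 6 libraries (colour, limited to ±1.5), with old libraries left of the line and genes in blocks by role. Young replicate 1 has the strongest positive values for Slc16a3, Pdk1, Egln3, Ankrd37 and Car12, and Ldhb, Hif1a and Epas1 run the other way.

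A list of 79 further genes of the same pathways was chosen to set beside these, of which 72 were tested. In old libraries 12 were higher and 9 were lower (29.2% called, against 10.5% of all genes tested), with a median log2 fold change of -0.01. As the list was chosen with earlier results of these data known, its share is no independent comparison. Among 17 further genes of pyruvate and lactate handling, 4 were higher (23.5%, against 5.84% of all genes tested) and 13 did not pass. Pdk4, the pyruvate dehydrogenase kinase that rises in fasting, had 98.0, 104 and 91.8 CPM in old and 48.0, 38.4 and 48.0 CPM in young libraries, opposite in direction to Pdk1 (log2 fold change 1.13, SE 0.11, adjusted p = 0.00163). Pdk3 was also higher (log2 fold change 0.44, adjusted p = 0.0174), a call lost without any one of the old libraries or young replicate 2 (adjusted p up to 0.0861). Emb, which encodes embigin, a partner that carries monocarboxylate transporters to the membrane, averaged 196 ± 21.6 CPM in old and 118 ± 7.46 CPM in young libraries (SD, n = 3 each; log2 fold change 0.74, adjusted p = 0.00559). The fourth was Pdha1, a subunit of pyruvate dehydrogenase itself (log2 fold change 0.28, adjusted p = 0.0462), a call that survived the removal of young replicate 3 but of no other single library (adjusted p up to 0.185), and 16.1% of its exon length overlaps another gene. Bsg, the other such membrane partner, had a log2 fold change of 0.14 (adjusted p = 0.635).

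Among 24 further genes of glucose transport and glycolysis, 18 were tested, 3 were higher and 4 were lower (38.9% called, against 10.5% of all genes tested). Eno3, the muscle enolase, had 33.5, 38.4 and 43.9 CPM in old and 20.6, 19.0 and 16.3 CPM in young libraries (log2 fold change 1.05, SE 0.14, adjusted p = 0.00466). Pgam2, the muscle mutase, had 2.62, 1.95 and 2.72 CPM in old and 10.1, 7.30 and 8.50 CPM in young libraries (log2 fold change -1.82, SE 0.21, adjusted p = 0.00271). Both calls held without any single library. The sugar transporter gene Slc2a12 and Galm, which encodes galactose mutarotase, were the other higher genes. The inositol transporter gene Slc2a13, Bpgm, which makes bisphosphoglycerate, and Fbp1, an enzyme of glucose synthesis, were the other lower ones. Log2 fold changes were 0.88 for Slc2a12, 0.43 for Galm, -0.81 for Slc2a13, -0.44 for Bpgm and -1.53 for Fbp1. Each of these calls was lost without any one of the old libraries, and those of Galm, Bpgm and Fbp1 also without young replicate 1 or 2. Fbp1 had only 27 to 46 counts in old libraries (edgeR adjusted p = 0.0493). Its call was also lost with upper-quartile factors, limma-voom or no low-count filter. Of 7 genes of the pentose phosphate pathway, which branches off glycolysis to make NADPH and ribose, 0 passed with edgeR or limma-voom. The unadjusted edgeR p was under 0.05 for 2 of the 7, as it was for 3709 of all 15567 genes tested. With DESeq2 1 of the 7 passed, where 13.3% of all genes did.

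Among 31 further genes of the hypoxia response, 30 were tested, and 5 were higher and 5 were lower (33.3% called, against 10.5% of all genes tested). Adm, which encodes the vessel-relaxing peptide adrenomedullin, had 109, 109 and 113 CPM in old and 31.5, 39.1 and 40.2 CPM in young libraries (log2 fold change 1.58, SE 0.11, adjusted p = 0.000537). Vegfa, the vessel growth factor, averaged 62.5 ± 0.818 CPM in old and 44.1 ± 1.65 CPM in young libraries (SD, n = 3 each; log2 fold change 0.50, adjusted p = 0.00833). Both calls held without any single library, and both run opposite to Slc16a3 and Ankrd37. Hmox1, which encodes a haem-degrading oxygenase, Arnt2, a relative of Arnt, and Ddit4, an inhibitor of mTOR signalling, were the other higher genes (log2 fold changes 0.48, 1.21 and 0.67), each lost without any one of the old libraries. The 5 lower genes were Ak4, a mitochondrial adenylate kinase, Mif, a cytokine, the histone demethylase genes Kdm3a and Kdm4b, and Bhlhe40, a transcriptional repressor. Their log2 fold changes ran from -2.12 to -0.37. Of these 5 calls, 0 held in edgeR with the replicate number as a block (adjusted p up to 0.0878). When any library other than young replicate 3 was left out, 0 to 1 genes of this list were called lower, and 6 without young replicate 3.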

How the data were processed

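The authors deposited a table of raw read counts per gene, with 6 columns matched to the libraries by name and 0 columns left unused. Each library started from the RNA of 10000 cells, amplified with a low-input full-length kit that does not mark strand and sequenced as 100 bp read pairs, per the labels' protocols. STAR 2.6.1a, HISAT2 2.1.0 and StringTie 1.3.4d and the mm10 build are named, without their roles, per the submitters' processing notes. The sources used here do not give the counting tool, the annotation or the handling of multi-mapped reads. A limit drawn from the count of a single library, as for Ankrd37 in old replicate 3, covers counting error only. The SEs come from the fit over libraries and describe their spread.

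Symbols were matched to 37607 identifiers, and unmatched ones held 0.339% to 0.398% of counts. The analysis used edgeR 4.0.16 in R 4.3.3 (filterByExpr, TMM, robust quasi-likelihood test, Benjamini-Hochberg over 15567 genes, threshold 0.05). Log2 fold changes are old minus young, with an SE from the F statistic (size of the change over root F). CPM uses TMM-scaled library sizes. CPM per kilobase uses the GENCODE M21 principal transcript. Paralogue ratios used a pseudocount of 0.5 CPM. Copies were found with blastn 2.17.0. The procedure was tested on simulated data. Alternatives were DESeq2 1.42.0 (test, size factors), upper-quartile factors, limma-voom (limma 3.58.1), other filters, a replicate block, copies added, and leaving out each library. Within an age, none of the 6 pairs of libraries agreed within sampling noise.

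The genes, lists and tests were chosen with earlier results of these data known. All 42 genes are accounted for by role. CPM in every library, or its range, is given for genes that passed or whose ranges were apart, and counts for the low ones. Further genes are named where they passed.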

Additional observations from a re-analysis of the deposited data

How the results depend on the processing

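Of the 15 calls among the 42 genes, 8 held in each of the 14 alternative fits, and of the 21 calls among the further genes 6 did. The counts of 12 lower and 3 higher genes stayed between 10 and 14 lower and 2 to 3 higher under DESeq2 size factors, upper-quartile factors, the DESeq2 test, limma-voom, both filters, a replicate block, added copies and a 1.5-fold limit. On leaving out single libraries they were 7 to 19 lower and 1 to 5 higher, and over all genes 294 to 1168 lower and 418 to 1459 higher. Higd1a was lost with upper-quartile factors (adjusted p = 0.0537) and limma-voom (adjusted p = 0.0552), and the DESeq2 test added Tpi1 and Bnip3 (adjusted p = 0.00831 and 0.0144). The cause of these changes was not tested. With the replicate number as a block, which the labels do not tie to a shared animal or day, 10 genes were lower and 2 higher (8.26% of all genes called), with Eno1, Pdk1 and Hif1a lost (adjusted p = 0.0568, 0.0586 and 0.0718). Same-numbered libraries had correlations of 0.11, 0.03 and 0.14 between their deviations. Each was the highest for its old library, but young replicate 2 correlated more with old replicate 1 (0.06).

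Of all genes, 8.26% were called with the block, 6.90% with no low-count filter, 13.3% with the DESeq2 test and 4.58% to 16.5% on leaving out a library. At over 1.5-fold, 4.57% were called higher and 3.67% lower. For the further genes of glucose transport and glycolysis the block gave 1 higher and 2 lower, and no low-count filter gave 2 lower. Single libraries left out gave 1 to 3 higher and 1 to 5 lower. For pyruvate and lactate, 2 were higher at over 1.5-fold, and 2 to 6 on leaving out a library. For the pentose phosphate pathway the DESeq2 test called 1 higher, and leaving out a library gave 0 to 1. For the further hypoxia genes, the DESeq2 test gave 9 lower, and the 1.5-fold limit 3 higher and 1 lower. The block gave 2 lower, Plod1 and Stc2, which were not called without it, and 0 of the 5 lower genes named in the text held under it; leaving out a library gave 2 to 5 higher and 0 to 6 lower. Differences near 0 changed sign when a library was left out: Hk3 lay between -0.0526 and 0.0502, Arnt between -0.039 and 0.135, the Hk2 to Hk1 ratio between -0.108 and 0.342, and the Eno2 to Eno1 ratio between -0.254 and 0.0341. No other ratio changed sign under a pseudocount of 0.1 CPM, added copies or a left-out library. Depth limits Ankrd37, with 20 counts over the old libraries.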
